A study of Homo sapiens with 6 samples.

Results

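Wide RNA polymerase I (Pol I) peaks with no listed RNA polymerase II (Pol II) peak over them were taken from the Pol I library of DMSO-treated LNCaP cells. A peak was included when its stop minus its start exceeded 1000 bp and it had no base in common with a peak of the DMSO Pol II list. These wide peaks numbered 945, which is 2.22% of the 42547 listed DMSO Pol I peaks and 87.6% of the 1079 that were wider than 1000 bp. The other 134 wide peaks were overlapped by a DMSO Pol II peak. The 945 were chosen by 2 values of these libraries, width and overlap with the DMSO Pol II list, so both are given as a description without a test.

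Pol I transcribes the ribosomal RNA precursor in the nucleolus, from repeated genes on the short arms of the acrocentric chromosomes. Pol II transcribes messenger RNAs and many noncoding RNAs. When Pol II leaves a promoter, the repeated tail of its largest subunit carries phosphate on serine 5. The hg19 assembly leaves out most ribosomal repeats, so peaks listed on its chromosomes lie mainly outside the genes that Pol I is known for.

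The libraries came from LNCaP, an androgen-responsive human prostate cancer line, given 1 µM BMH-21 or the solvent DMSO for 6 h. BMH-21, a DNA intercalator, is known as an inhibitor of Pol I. Pol I was precipitated with an antibody labelled C-1 and Pol II with an antibody labelled 4H8 that binds the tail phosphorylated at serine 5. The samples ask where each polymerase lay with and without the inhibitor. Of 6 samples, 4 ChIP libraries had a peak list (BMH-21 Pol I, BMH-21 Pol II, DMSO Pol I and DMSO Pol II) and 2 input libraries were not analysed here. Each group was 1 library of 1 cell line, so no difference between groups has a replicate error or a test. The 95% interval given with a percentage is exact (Clopper-Pearson) and reflects only how many peaks were counted. No interval is a test of a difference, and nothing below is shown to be particular to the wide peaks. Peaks are not replicates of a condition, and neighbouring peaks can share a locus. The lists give no read counts, and the depth is therefore unknown. Positions are on hg19. Neither an annotation nor a genome of that build was used here, so each region is given by position, without its gene, exon or promoter.

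The wide peaks covered 1.22 Mb, or 5.67% of the length under DMSO Pol I peaks. Their median width was 1169 bp, with quartiles of 1066 and 1365 bp and a widest peak of 6387 bp. The authors' score per peak stands in a column headed as a p-value, but its values start at 50 and its scale is not stated. It had a median of 348.76 in the wide peaks without listed Pol II. The median was 309.03 in the 134 wide peaks under Pol II and 93.67 in the 35654 narrower peaks without Pol II. Of the 945, 26 scored below 100 (2.75%), as did 2 of the 134 wide peaks under Pol II (1.49%). Among all DMSO Pol I peaks, 51.1% did so. To the 945 also belonged 8 of the 10 highest scores in the whole DMSO Pol I list. The 100 highest scores included 56 of the 945 (5.93%) and 6 of the 134 wide peaks under Pol II (4.48%). Width and score come from the same library and moved together over all DMSO Pol I peaks (Spearman's rho 0.80). High score is therefore not a trait separate from the choice by width. Within the 945, width and score moved together less closely (rho 0.34), as within the 134 wide peaks under Pol II (rho 0.24).

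**Figure D1:**
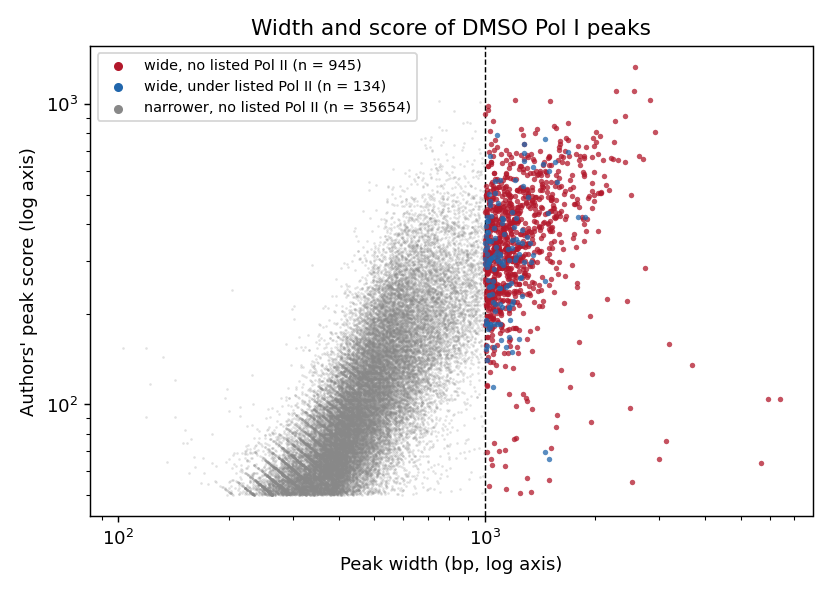
Width (bp, log axis) and authors' score (log axis) of DMSO Pol I peaks, 1 point per peak, with the 1000 bp threshold dashed. The 945 wide peaks without listed Pol II reach 6387 bp and a score of 1326.79, the 134 under listed Pol II reach 1880 bp and 792.23, and a sparse group of wide peaks with scores below 100 lies at the lower right.

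The threshold cut through a continuous range of widths. Just inside it, 30 peaks of 1001 to 1010 bp without listed Pol II had a median score of 307.36. Just outside, 34 peaks of 991 to 1000 bp had a median of 267.13. Among the narrowest included, the 1001-bp peaks at chr4:17867522-17868522 and at chr7:25990345-25991345 scored 351.99 and 314.87. Other 1001-bp peaks lay at chr19:58739965-58740965 (score 311.62) and 11199573 to 11200573 (281.66), and at chr13:111489595-111490595 (306.38). The widest peaks left out had exactly 1000 bp, such as chr1:54518750-54519749 with a score of 399.79, chr17:61597339-61598338 with 287.45 and chr13:52026258-52027257 with 205.95. The peak at chr14:24563002-24564001 scored 165.7 and that at chr8:11659592-11660591 scored 297.24. The scores on either side overlap, and the threshold falls within 1 continuous range.

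How far the lists can show that these peaks lacked Pol II was examined through the running number that each peak carries in its name. The numbers rise along every list and skip values. Why values are skipped is not given in the sources used here, and a skipped number may stand for a peak that was called and then left out of the list. The BMH-21 and DMSO lists of each antibody have 0 overlapping peaks, so peaks common to both treatments may have been left out of both lists, which was not tested. The DMSO Pol I list that holds the wide peaks itself skips 12923 of 55470 numbers (23.3%). Shares of wide peaks beside or under peaks of a BMH-21 list therefore describe listed peaks and not all binding. A stretch is the interval between neighbouring listed Pol II peaks. Where it skips a number, the list alone does not show that Pol II was absent.

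Nearly all of the wide peaks lay in DMSO Pol II stretches with a skipped number. The count was 912 of 945 (96.5%, interval 95.1 to 97.6), while 23 lay in a stretch that skipped none (2.43%, interval 1.55 to 3.63) and 10 were not between listed Pol II peaks of their chromosome. Among all DMSO Pol I peaks, 73.4% lay in a stretch that skipped a number and 12.4% in one that skipped none, the remainder being mostly peaks under a listed Pol II peak. Among the narrower peaks without listed Pol II, 5247 of 35654 (14.7%, interval 14.4 to 15.1) lay in a stretch that skipped none. The 935 wide peaks with a stretch lay in 857 separate stretches, of which 835 skipped a number (97.4%). Over the whole DMSO Pol II list, 12346 of 28774 stretches did so (42.9%). The lengths differ, as 65 of the 857 and 13671 of the 28774 were at most 10 kb. Up to that length, all 65 skipped a number, against 21.1% of the 13671. A stretch that holds a wide peak is also longer than 1000 bp by construction. No Pol II number is missing around 23 of the 945 wide peaks, so the label "without Pol II" goes further than the lists do, and the 945 are called peaks without listed Pol II.

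The wide peaks lay in shorter stretches than the narrower peaks, with medians of 98.9 and 258.7 kb, and the contrast was also seen at matched stretch length. In stretches of at most 10 kb, all 66 wide peaks had a skipped number (interval from 94.6%), against 765 of 995 narrower peaks (76.9%, interval 74.1 to 79.5). In 45 of these 66 cases exactly 1 number was skipped, and the same held for 501 of the 765 narrower peaks. In stretches of 50 to 100 kb the counts were 171 of 177 (96.6%, interval 92.8 to 98.7) and 2893 of 3867 (74.8%, interval 73.4 to 76.2).

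**Figure D2:**
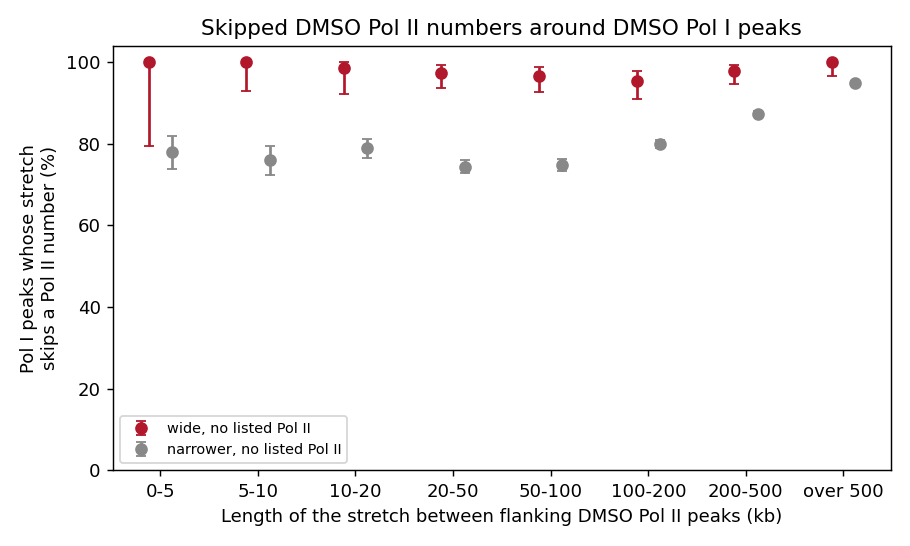
Share of DMSO Pol I peaks (y axis, %) whose DMSO Pol II stretch skipped at least 1 number, by length of that stretch (x axis, kb), with exact 95% intervals. Wide peaks without listed Pol II (red) sit above narrower ones (grey) at each length, and the points converge above 500 kb, at 100% and 94.9%.

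The same share changed with width below the threshold too. In stretches up to 100 kb, a number was skipped at 97.9% of peaks of 1000 to 1500 bp and at 96.5% of those wider than 1500 bp. It was skipped at 92.5% of peaks of 700 to 1000 bp, 79.9% of 500 to 700 bp and 67.1% of 300 to 400 bp. Score moved with width, and the contrast was also seen within broad score ranges. Stretch length was not matched within them, and the part of score in the contrast was not tested. With scores of 400 or more, 1 of 379 wide peaks (0.264%, interval 0.00668 to 1.46) and 27 of 487 narrower peaks (5.54%, interval 3.69 to 7.96) lay in a stretch that skipped none. With scores from 200 to below 400, the counts were 15 of 462 (3.25%, interval 1.83 to 5.30) and 398 of 4301 (9.25%, interval 8.40 to 10.2).

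After BMH-21, the Pol II list also skipped a number around most of the wide peaks, at 903 of 945 (95.6%, interval 94.04 to 96.8), close to the 93.6% of all DMSO Pol I peaks. Both Pol II lists skipped a number at 886 of 945 (93.8%, interval 92.02 to 95.2), against 81.01% of narrower peaks without listed Pol II. Among all DMSO Pol I peaks it was 70.0%, where peaks under DMSO Pol II could not count.

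Listed DMSO Pol II peaks were near the wide peaks more often than near the narrower ones. Within 10 kb of a listed DMSO Pol II peak lay 444 wide peaks (46.98%, interval 43.8 to 50.2), against 34.1% of all DMSO Pol I peaks, a figure that includes those under Pol II, and 22.7% of narrower peaks without listed Pol II. Below the threshold this share also rose with width, from 19.7% at 300 to 400 bp to 34.2% at 700 to 1000 bp without listed Pol II. The median distance was 11.8 kb for wide and 42.99 kb for narrower peaks. At 50 wide peaks (5.29%, interval 3.95 to 6.92) a listed Pol II peak lay within 5 kb on both sides, against 1.97% of narrower peaks without listed Pol II. Among all DMSO Pol I peaks it was 1.77%, where peaks under Pol II could not count. The nearest listed DMSO Pol II peak was 3 bp away, beside the wide peak at chr9:140063707-140064895 (score 454.39). Next came chr10:38691260-38692488 with 16 bp, chr19:52551881-52553096 with 38 bp and chr11:82867862-82869392 with 39 bp. The absence of shared bases was therefore, at some wide peaks, a matter of a few bases.

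At the other end, the wide peak at chr2:89864881-89866014 was 1377 kb from any listed DMSO Pol II peak, and it was weakly scored (62.34). The peak at chr16:12975014-12976192 was 912 kb away with a score of 308.34, and that at chr11:39466266-39467277 was 785 kb away with a score of 505.3. The peaks at chr9:70645764-70646853 (score 239.4) and at chr4:102133323-102134340 (score 143.68) followed at 708 and 652 kb. The stretches around these 5 peaks skipped 3, 2, 7, 21 and 7 numbers, so Pol II cannot be called absent there from the list.

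The 10 highest-scored wide peaks show how the lists lie around such a peak. The first, at chr16:4321173-4323750 (score 1326.79), had its nearest listed DMSO Pol II peak 2907 bp away, and its 66.4-kb stretch skipped 1 number. On the same chromosome, the peak at 85644522 to 85647070 (1109.71) was 1747 bp from listed Pol II and its stretch skipped 6 numbers. The peak at chr1:28836116-28838391 (1105.75) was 9972 bp from DMSO Pol II and 845 bp from a BMH-21 Pol I peak. At both the peak scored 1326.79 and the peak scored 1105.75, a single Pol II number was missing from the stretch.

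Those at chr22:50967999-50970828 (score 1036) and at chr12:56497611-56499120 (1026.16) lay in stretches of 11.9 and 11.4 kb that each skipped 1 number. The peak at chr2:219134529-219135530 (925.04) was 74 bp from a listed DMSO Pol II peak, in a 7.1-kb stretch that skipped 1. The remaining 4 were at chr21:45079033-45080240 (1031.38), chr16:1832290-1833313 (986.62), chr7:120348283-120349305 (954.44) and chr1:27021791-27024204 (912.96). Their stretches, of 293.5, 101.9, 148.9 and 172.1 kb, skipped 4, 3, 3 and 4 numbers. None of the 10 shared a base with a BMH-21 Pol II peak, and each had a Pol II stretch with a skipped number in both treatments.

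**Figure D3:**
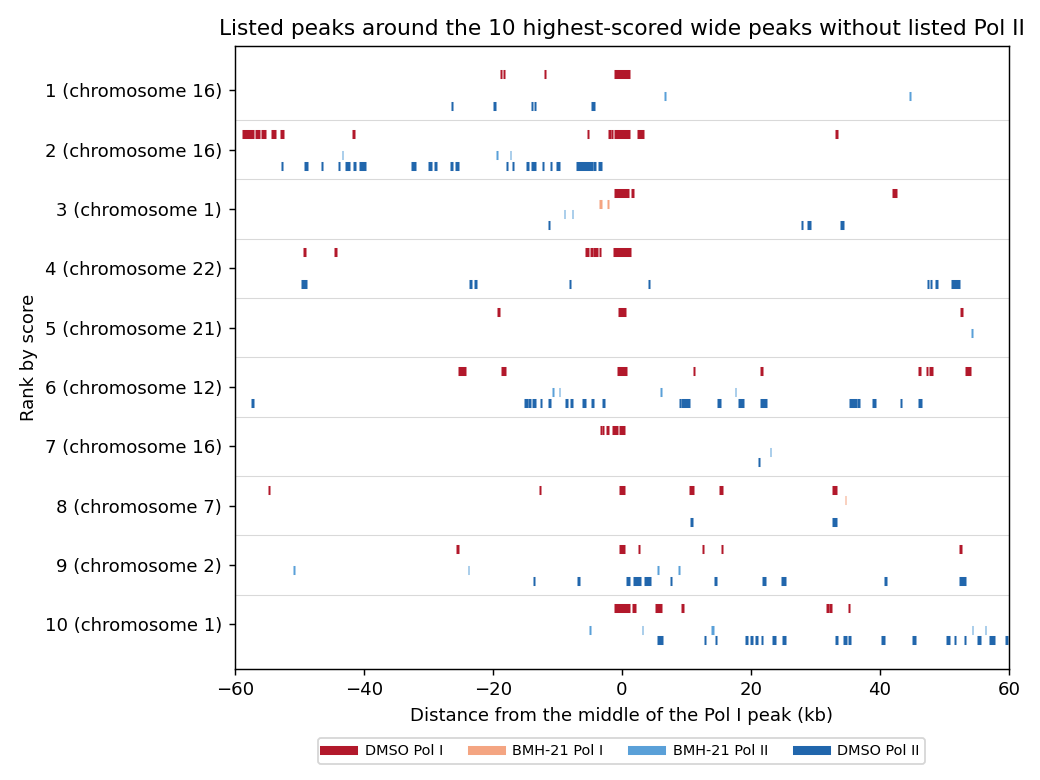
Listed peaks of the 4 libraries within 60 kb of the middle of each of the 10 highest-scored wide peaks without listed Pol II (x axis, kb; y axis, rank by score and chromosome), with each list in its own colour and row. DMSO Pol II peaks lie on both sides of several of these Pol I peaks, as around the sixth, and no BMH-21 Pol II peak lies on any of the 10.

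The 23 wide peaks in a stretch that skipped no number carried lower scores as a set. Their counts over the score quartiles of the 945, from the lowest quartile up, were 12, 8, 2 and 1. The highest-scored was at chr9:123333590-123334613 (score 622.93), 7582 bp from listed DMSO Pol II, and the BMH-21 Pol II list also skipped no number around it. Next came chr19:16985803-16986887 (397.6) and chr7:22112719-22113735 (389.23). These 3 were picked after their values were seen.

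Listed BMH-21 Pol I peaks lay beside the wide peaks more often than beside other DMSO Pol I peaks. Since the Pol I lists of both treatments share no position, only neighbours could be counted. The BMH-21 Pol I list holds 1932 peaks and skips 13823 of 15755 numbers (87.7%). Its stretch skipped a number at 887 of the 945 wide peaks (93.9%, interval 92.1 to 95.3) and at 94.9% of all DMSO Pol I peaks, so an unlisted BMH-21 Pol I peak cannot be told from none. Within 10 kb there was a BMH-21 Pol I peak at 74 of 945 wide peaks (7.83%, interval 6.20 to 9.73), against 2 of 134 wide peaks under Pol II (1.49%, interval 0.182 to 5.29), 2.42% of narrower peaks without Pol II and 2.45% of all DMSO Pol I peaks. Among peaks of 700 to 1000 bp without listed DMSO Pol II, that share was 3.45%. Within 1 kb the counts were 29 of 945 (3.07%, interval 2.06 to 4.38) and 0 of 134 (exact upper limit 2.72%). The share was 0.541% of narrower peaks (193 of 35654) and 0.578% of all DMSO Pol I peaks. Distance ran from the edge of a peak, so the flank searched was 1 kb on each side at any width. Measured from the midpoint, 14 wide peaks (1.48%, interval 0.812 to 2.47) and 160 narrower ones (0.449%, interval 0.382 to 0.524) had such a neighbour within 1 kb. The midpoint measure leaves a wide peak less flank, because more of the 1 kb is the peak itself, which no listed BMH-21 Pol I peak overlaps.

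Of the 29 wide peaks with such a neighbour, 14 were in the highest quartile of score among the 945, and their median score was 478.45, against 346.25 for the other 916. With scores of 400 or more, 17 of 379 wide peaks (4.49%, interval 2.63 to 7.08) and 1 of 487 narrower peaks (0.205%, interval 0.0052 to 1.14) had a BMH-21 Pol I peak within 1 kb. The wide peak at chr11:10879032-10880596 (score 582.87) touched its BMH-21 neighbour, with 0 bp between them. On chromosome 12 the wide peak at 125398439 to 125399952 (score 627.12) lay 34 bp from a 2265-bp BMH-21 Pol I peak at 125396140 to 125398404, whose own score was 1671.3. A second wide peak, at 125393958 to 125395918 (score 451.65), lay 221 bp from the other side of that BMH-21 peak and was singled out after its values were seen. The BMH-21 Pol I peak there lay between wide DMSO Pol I peaks on either side. The other near BMH-21 Pol I peaks were weakly scored. They stood 19 bp from chr4:190987981-190989073, 47 bp from chr4:40058474-40059690 and 56 bp from chr22:46471789-46472912, and scored 52.45, 59.76 and 63.01. The scale of scores may differ between libraries.

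BMH-21 Pol II peaks overlapped the wide peaks about as often as any DMSO Pol I peak. The count was 22 of 945 (2.33%, interval 1.46 to 3.504), against 6 of 134 wide peaks under DMSO Pol II (4.48%, interval 1.66 to 9.49), 2.77% of narrower peaks without Pol II and 2.43% of all DMSO Pol I peaks. The share within 1 kb was 4.87% (46 of 945, interval 3.59 to 6.44), against 3.83% of all DMSO Pol I peaks. Within 10 kb the share was 27.4% for the wide peaks (259 of 945, interval 24.6 to 30.4), against 16.4% for wide peaks under DMSO Pol II (22 of 134, interval 10.6 to 23.8), 12.5% for narrower peaks and 13.1% for all DMSO Pol I peaks. Among peaks without listed DMSO Pol II, it was 9.80% at 300 to 400 bp and 19.7% at 700 to 1000 bp. Among scores of 400 or more it was 27.4% of 379 wide peaks (interval 23.01 to 32.2) and 17.5% of 487 narrower peaks (interval 14.2 to 21.1).

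**Figure D4:**
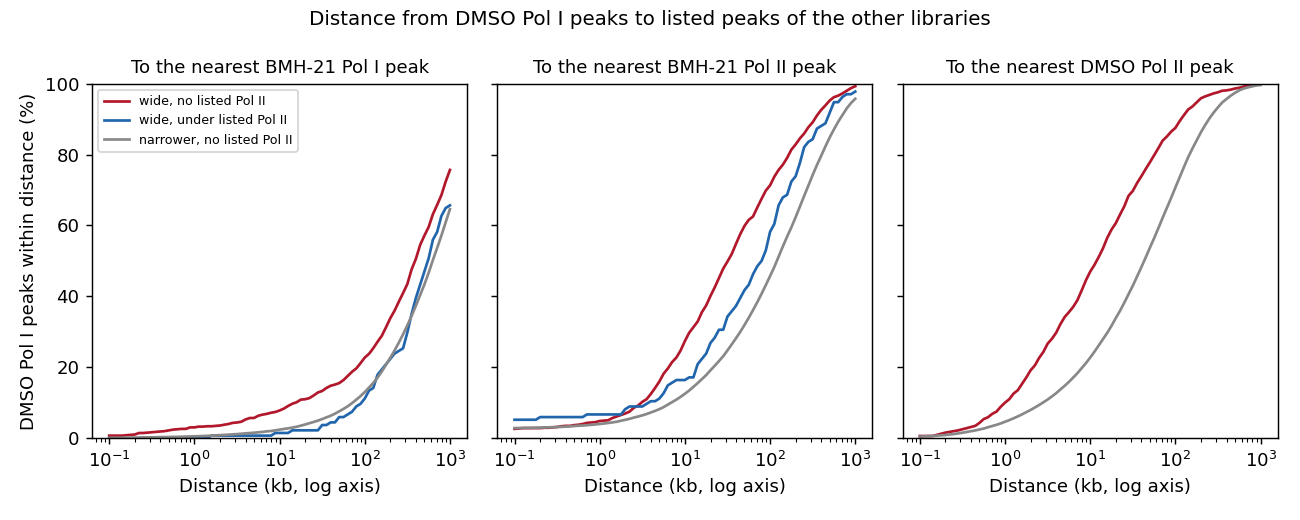
Cumulative share of DMSO Pol I peaks (y axis, %) within a distance (x axis, kb, log axis) of the nearest listed BMH-21 Pol I, BMH-21 Pol II or DMSO Pol II peak, where an overlap counts as distance 0. The curve of wide peaks without listed Pol II lies above that of narrower ones at 10 kb in each panel, at 7.83%, 27.4% and 46.98% against 2.42%, 12.5% and 22.7%.

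The 22 overlapped wide peaks had a median score of 163.42, against 351.99 for the other 923. Of the wide peaks with scores below 100, 7 of 26 were overlapped (26.9%, interval 11.6 to 47.8), against 15 of the 919 with scores of 100 or more (1.63%, interval 0.916 to 2.68). Narrower peaks with scores below 100 were overlapped in 2.43% of cases (471 of 19348). The highest-scored BMH-21 Pol II peak over a wide peak ran on chromosome 14 from 30354993 to 30370529 (score 3100) and contained all 1198 bp of the wide peak at 30367316 to 30368513 (score 132.7). On the same chromosome, wide peaks at 30395788 to 30397174 and 30226436 to 30227477 lay wholly under BMH-21 Pol II peaks scored 1694.12 and 1251.19. These 3 shared a single 361.5-kb DMSO Pol II stretch that skipped 12 numbers, and so are not independent.

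The wide peak at chr21:22835497-22837009 (score 262.25) lay wholly under a BMH-21 Pol II peak at 22831499 to 22848264 with a score of 2176.76. Its DMSO Pol II stretch of 53.2 kb skipped 0 numbers. The DMSO Pol II list thus neither holds a peak nor lacks a number there, and each treatment had 1 Pol II library. On chromosome 18, the wide peak at 56029726 to 56030904 had the highest score of the 22, 451.79, and lay wholly under a BMH-21 Pol II peak scored 970.82, in a DMSO Pol II stretch that skipped 3 numbers.

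A small group of wide peaks with lower scores lay beside the longest interval on a chromosome that held no listed peak, a position taken from the lists and not from an annotation of centromeres. Within 1 Mb of it lay 31 of the 945 (3.28%, interval 2.24 to 4.62), against 1.22% of all DMSO Pol I peaks. Their median score was 128.29, against 353.65 for the other 914. Of the 26 wide peaks with scores below 100, 10 lay there, as did 21 of the 919 with higher scores. The widest peak, 6387 bp at chr21:11167182-11173568, had a score of 104.17 and lay there too, as did the peak of 5689 bp at chr17:21902179-21907867 with a score of 63.85. The second widest was near the first listed peaks of chromosome 4, at 51578 to 57520 (5943 bp, score 103.94), and shared bases with a BMH-21 Pol II peak. Chromosome Y at 13479881 to 13483552 (3672 bp, score 135.32) and chr21:9697991-9701174 (3184 bp, score 158.48) completed the 5 widest. Of the 31, 5 were overlapped by BMH-21 Pol II (16.1%, interval 5.45 to 33.7), against 17 of the other 914 (1.86%, interval 1.09 to 2.96). Without the 31, the share in a stretch that skipped no number was 2.52% and the share with a BMH-21 Pol I peak within 1 kb was 3.06%.

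The share of DMSO Pol I peaks that were wide and without listed Pol II differed between chromosomes, with a median of 2.16% over 24 chromosomes. It was highest on chromosome 19 (59 of 1200, 4.92%, interval 3.76 to 6.30), chromosome 17 (74 of 1661, 4.46%, interval 3.51 to 5.56) and chromosome 21 (23 of 571, 4.03%, interval 2.57 to 5.98). It was lowest on chromosome X, with 0 of 834 (exact upper limit 0.441%). Chromosome 13 followed with 4 of 1011 (0.396%, interval 0.108 to 1.01) and chromosome 2 with 25 of 2998 (0.834%, interval 0.540 to 1.23). Chromosomes 1, 17 and 19 together held 231 of the 945. Of these, 98 were on chromosome 1, among its 3835 DMSO Pol I peaks. That share was 2.56% (interval 2.08 to 3.11), and its interval includes the median share. The share of high scores moved with the share of wide peaks. Peaks scoring 200 or more made up 21.9% of DMSO Pol I peaks on chromosome 19 and 21.01% on chromosome 17, against 12.9% on X and 13.6% on chromosome 13. Across the 24 chromosomes of this library the rank correlation of both shares was 0.77 (Spearman's rho), and the part of score in the chromosome differences was not tested. The lower quartile of score among the 945 was 257.86, so most wide peaks count in both shares. Part of this correlation is therefore built in.

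Peaks of any width in the DMSO lists tended to be narrower on 5 chromosomes, of which X, 13 and 2 held the lowest shares of wide peaks and Y and 22 had intervals that include the median share. The median width of DMSO Pol I peaks was 386 bp on X, 411 bp on chromosome 13, 412 bp on Y, 422 bp on chromosome 2 and 433 bp on chromosome 22, against 461.5 to 485 bp on the other 19. In the DMSO Pol II list the same 5 chromosomes had medians of 440.5 to 466 bp, against 489.5 to 521 bp on the others. Median DMSO Pol I scores were 89.5 to 102.62 on the 5 and 94.37 to 111.59 on the others, and these ranges overlap. At scores from 100 to below 200, the median DMSO Pol I width was 447 to 488 bp on the 5 and 513.5 to 540 bp on the others. Together the 5 held 44 wide peaks among 5638 DMSO Pol I peaks (0.780%, interval 0.568 to 1.05), against 901 among 36909 (2.44%, interval 2.29 to 2.60) on the others. This group of 5 was formed after the widths were seen. The part of peak width in general in the low shares was not tested.

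**Figure D5:**
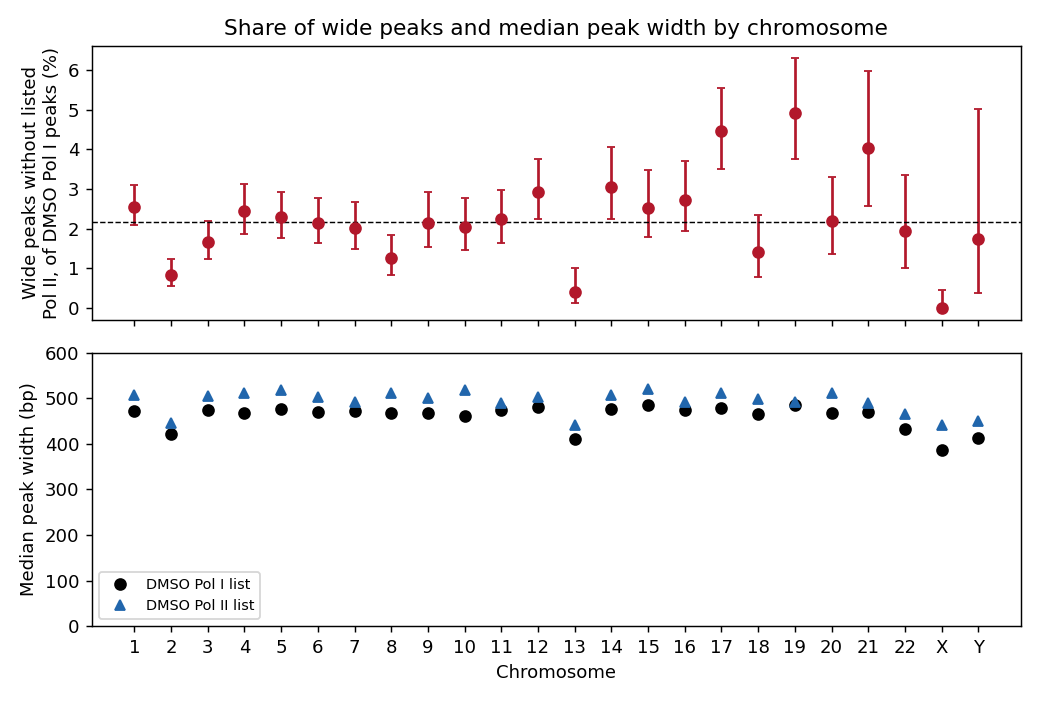
Top, share of DMSO Pol I peaks that were wide and without listed Pol II (y axis, %) by chromosome, with exact 95% intervals and the median over chromosomes dashed at 2.16%. Bottom, median width (bp) of all peaks in the DMSO Pol I and DMSO Pol II lists, which was lower on chromosomes 2, 13, 22, X and Y in both.

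Most wide peaks stood apart from each other. Joined where no more than 10 kb separated them, the 945 formed 898 loci, of which 856 held 1 wide peak, 37 held 2 and 5 held 3. The loci of 3 were at chr5:113697289-113714178 (highest score 804.93), chr17:80054940-80068990 (674.03), chr21:9835487-9843082 (655.13), chr14:38056123-38065970 (547.8) and chr4:39979-57520 (220.95). On chromosome 5, the locus also had a BMH-21 Pol I peak 530 bp away and a BMH-21 Pol II peak 1354 bp away. DMSO Pol I peaks of any width were often close by. At 218 wide peaks (23.1%, interval 20.4 to 25.9) another lay within 1 kb, against 14 of 134 wide peaks under Pol II (10.4%, interval 5.83 to 16.9) and 12.7% of all DMSO Pol I peaks. Another DMSO Pol I peak of any width lay within 10 kb of 528 wide peaks (55.9%, interval 52.6 to 59.1), against 42.5% of all DMSO Pol I peaks. Peaks of 700 to 1000 bp without listed Pol II lay between, at 17.2% within 1 kb and 50.3% within 10 kb. Within 1 Mb of the first or last listed peak of a chromosome lay 43 of the 945 (4.55%, interval 3.31 to 6.08), against 1 of 134 wide peaks under Pol II (0.746%, interval 0.0189 to 4.09) and 2.32% of all DMSO Pol I peaks. For peaks of 700 to 1000 bp without listed Pol II it was 3.66%.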

How the data were processed

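Chromatin immunoprecipitation libraries of LNCaP cells were grouped by their titles, with 1 library per group. The submitters' processing notes name the build hg19 and the tools Bowtie2 2.2.1, deepTools 3.5.4 and CASAVA 1.8.2. The authors' deposited files list peaks per library with a score, named a p-value per the file headers but starting at 50 and of unstated scale. Peak names begin with MACS, a peak caller, with version and settings not given in the sources used here. Lists hold no read counts, so depth is unknown and unlisted regions are not shown to lack a polymerase.

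Starts were shifted to the first base as a browser shows it. Overlap meant 1 bp or more, and distance was counted from the peak's edges. Skipped numbers were counted between listed peaks flanking a region. Wide peaks were set beside wide peaks under Pol II, narrower peaks without Pol II, and all DMSO Pol I peaks, with exact intervals (SciPy 1.17.1, level 95%) and no test. The counting of overlaps and skipped numbers was tested on simulated data. Regions named were, unless stated, the 10 highest-scored, the 5 widest, 5 on each side of the threshold, 5 under the highest-scored BMH-21 Pol II peaks, 5 farthest from and 5 nearest to DMSO Pol II, 5 nearest to BMH-21 Pol I and the 5 loci with most wide peaks. The wide peaks and rules were chosen with earlier results of these data known. Alternatives changed width, score, distance, overlap and chromosomes. Planned counts at gene starts, over gene lists and of base composition were not run, because no annotation or genome on hg19 was used. Python 3.11.15, NumPy 2.4.6, pandas 2.3.3 and matplotlib 3.10.9 were used.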

Additional observations from a re-analysis of the deposited data

How the results depend on the processing

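For 8 results, 35 alternatives were computed, 12 of them chosen after seeing the data, and 20 gave a count within 1.5 times the reported one or a share inside its interval. The number of wide peaks without listed Pol II was 2446 with widths above 800 bp, 164 above 1500 bp, 622 with no listed DMSO Pol II peak within 5 kb, and 23 in stretches that skip no number, against 945. Each of these follows from the setting's own construction. The share overlapped by BMH-21 Pol II was 4.87% within 1000 bp, 4.27% for widths above 1500 bp and 1.27% for BMH-21 Pol II scores of 100 or more. With distances of 5 and 20 kb in place of 10 kb, the shares with a neighbour were 5.71% and 11.01% for BMH-21 Pol I. They were 15.98% and 40.1% for BMH-21 Pol II, and 34.2% and 60.6% for DMSO Pol II. From the midpoint, 1.48% had a BMH-21 Pol I peak within 1 kb. With widths above 800 bp, 3.802% lay in a stretch that skips no number. The cause of the changes in these shares was not tested. No paired analysis was possible because each group had 1 library. Gene starts, GC and CpG content were not run without an hg19 annotation or genome. Peak lists without read counts limit all results to listed peaks.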
